A study of Homo sapiens with 12 samples.

Results

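RNA-seq libraries of HK-2 cells carrying a short hairpin RNA against YAP1 were compared with libraries of HK-2 cells carrying a control hairpin, both under hydrogen peroxide. The comparison was defined by the sample labels and not by any measured value: it takes 4 libraries labelled as YAP1 knockdown with H2O2 (shYAP1_H2O2) and 4 labelled as control hairpin with H2O2 (shNC_H2O2), which is 8 of the 12 libraries in the series. HK-2 is an immortalised human line from the epithelium of the proximal tubule, whose cells reabsorb most of the filtrate in the kidney and are sensitive to oxidant injury. The labels name kidney as the tissue and their extraction text speaks of tissue, whereas the cell line, culture and treatment entries name HK-2, and the libraries are taken here as HK-2. Per the labels the cells were held in MEM with serum, and the oxidant was given at 150 µM for 48 h. The remaining 4 libraries, control hairpin without the oxidant (shNC), entered the fit and are quoted beside the results as a reference level. YAP1-hairpin cells without the oxidant were not analysed here, so each difference below is one between hairpins under the oxidant, and whether it depends on the oxidant was not tested. The labels give neither the number of hairpin sequences nor of clones. Nothing in them ties the 4 libraries of a group to cultures grown apart, and the p-values below speak only of scatter among these libraries, which may be technical.

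YAP1 and its paralog TAZ (gene WWTR1) are transcriptional co-activators at the end of the Hippo pathway. When the kinases MST1/2 (genes STK4 and STK3) and LATS1/2 are active, YAP1 is phosphorylated and kept in the cytoplasm. When they are not, it enters the nucleus and binds TEAD transcription factors at genes of matrix, adhesion and growth, such as CCN1, CCN2 and ANKRD1. In the tubule, YAP1 and TAZ have been tied to repair after injury and to the secretory state of cells that fail to recover.

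Gene expression is given in CPM, the count of a gene scaled to a common library size, which compares one gene between libraries but not one gene with another. An error after ± is the SD of 4 libraries where it follows a mean CPM and the standard error where it follows a log2 fold change, and every fold change is shYAP1_H2O2 over shNC_H2O2 unless another pair is named. A gene was called higher or lower where its adjusted p (Benjamini-Hochberg) from edgeR's quasi-likelihood test lay under 0.05. Total counts of the 8 libraries lay between 30789997 and 46438941, so that 3 counts, taken as the floor of detection, correspond to 0.0646 to 0.0974 CPM. Of the markers of tubule epithelium 10 of 11 were tested, and 3 of them were called higher, 2 lower and 5 not called. Among the 10, PAX8 stood at 244 ± 11.6 CPM in shNC_H2O2 and 319 ± 40.9 in shYAP1_H2O2. The endocytic receptor LRP2 was too low to be tested, and CUBN stayed under 0.5 CPM in all 8 libraries. The summed level of the tested leukocyte markers was 14.5 to 18.4 CPM in shNC_H2O2 and 28.1 to 37.2 CPM in shYAP1_H2O2, and that of the fibroblast markers 236 to 255 and 145 to 173 CPM. Of 8 listed markers each, 4 of leukocytes, 5 of fibroblasts and 1 of endothelial cells were tested. The endothelial marker stood at 6.43 to 7.84 CPM in shNC_H2O2 and 1.76 to 2.21 CPM in shYAP1_H2O2, and was called lower. The 4 tested podocyte markers summed to 52.7 to 59.4 and 44.2 to 57.8 CPM in these groups. The 2 tested distal nephron markers summed to 0.254 to 0.465 and 0.765 to 0.944 CPM. PTPRC and PECAM1, defining markers of leukocytes and endothelium, were too low to be tested. What part such markers have in the results was not tested.

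One library stood apart. Mitochondrially encoded genes took 11.3% of the counts of shYAP1_H2O2 replicate 3, 4.54% to 4.86% of those of its 3 partners and 5.49% to 5.64% in shNC_H2O2. On the second principal component of the 8 libraries, which held 12.9% of the variance, this library lay alone, while the first, with 61.5%, separated the groups. Among 11517 genes averaging at least 5 CPM, it lay at least 2-fold above the other 3 libraries of its group for 57 genes and at least 2-fold below them for 28, compared with at most 3 and 1 for any of the other 3. The group difference in the mitochondrial share was not detectable (exact two-sided permutation test, p = 1), but without replicate 3 shYAP1_H2O2 differed from shNC_H2O2 by -0.878 percentage points (exact permutation test over the remaining 7 libraries, p = 0.0286). Results are therefore also given without this library and without shNC replicate 4, whose share was 13.9% (together, the 2 mitochondria-rich libraries), where the call or direction of a named gene changed, or where its value or a count of called list members moved by over 1.5 times. Apart from that, the 2 groups differed in total counts by less than their spread (exact permutation test, p = 0.571).

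Of 19268 genes tested, 8288 were called, which is 43.0%. Of these, 4235 were higher (22.0% of tested genes) and 4053 lower (21.0%), and the median log2 fold change of all tested genes was -0.00. A change of at least 2-fold was called for 2059 genes, 977 higher (5.07%) and 1082 lower (5.62%). The 4 libraries of one group lay entirely outside the range of the other for 8713 genes (45.2%). These shares are the background for every count of genes below: a gene list whose share called is near 43.0% does not stand out. Well-expressed genes were called more often, with 51.6% of the 11486 placed genes that average at least 5 CPM (chromosome Y and the mitochondrial genome left out).

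**Figure D1:**
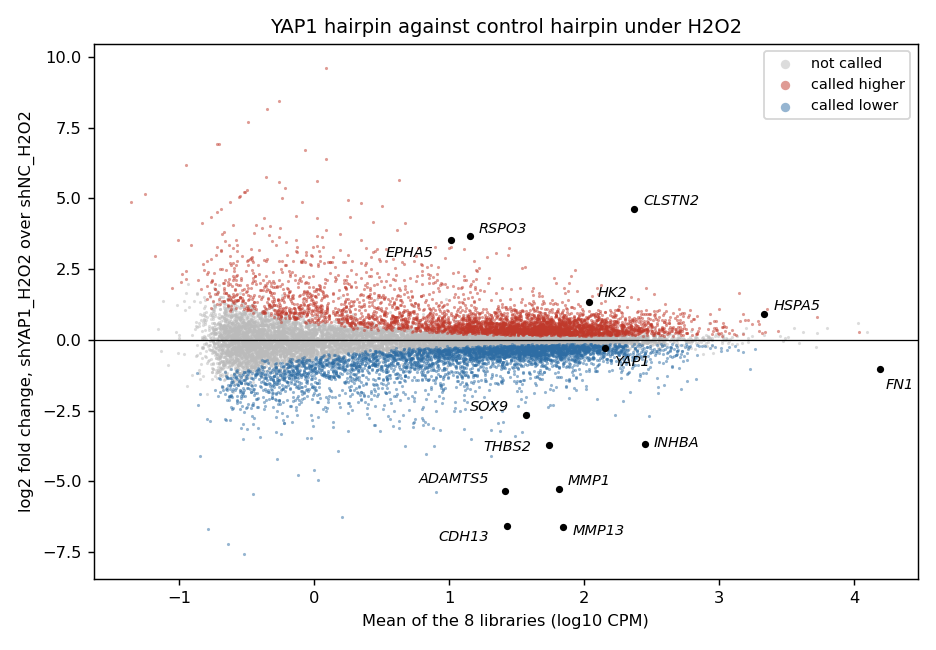
Mean expression of each tested gene over the 8 libraries (log10 CPM, x axis) against its log2 fold change, shYAP1_H2O2 over shNC_H2O2 (y axis), with genes called higher in red, called lower in blue and the others in grey. A few genes described in the text are named (black points). Called genes spread to both sides of 0 at every level of expression, with MMP13 at -6.62 and CLSTN2 at 4.64.

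Position along the chromosomes moved with the difference. The median log2 fold change was 0.36 over the 653 genes of chromosome 3 with a mean of at least 5 CPM, 0.21 on chromosome 1 and 0.19 on chromosome 22, and -0.48 over the 115 genes of chromosome 21, -0.26 on chromosome 14, -0.22 on chromosome 19 and -0.18 on chromosome 2. Of 151 windows of 20 Mb with at least 20 such genes, 16 had a median beyond 0.3 in either direction, 13 of them higher. In the window from 120000001 to 140000000 on chromosome 3 (GRCh38) 88 of 99 genes were called higher and 3 lower, and the median was 0.67. The libraries of a group were alike in this: relative to the mean of shNC, the median of chromosome 3 lay between -0.33 and -0.31 in each shNC_H2O2 library and between -0.03 and 0.04 in each shYAP1_H2O2 library. Set against shNC, no window of the shYAP1_H2O2 libraries passed 0.3, and the largest median was 0.20. Of 21 tested genes of the Y chromosome, 18 were called higher and 0 lower in shYAP1_H2O2 against shNC_H2O2 (against 22.0% of all genes called higher), 0 higher and 18 lower in shNC_H2O2 against shNC, and 2 higher and 0 lower in shYAP1_H2O2 against shNC. Whether the 3 groups are one cell population was not tested, and for every gene a difference between populations and one between hairpins cannot be told apart in this design. The fold changes were therefore also computed after subtracting the median of the 51 neighbouring genes. By that measure 7310 genes were called, and 6155 genes (31.9%) were called both ways in the same direction. Values by that measure are given by the same rule as those without the 2 libraries.

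**Figure D2:**
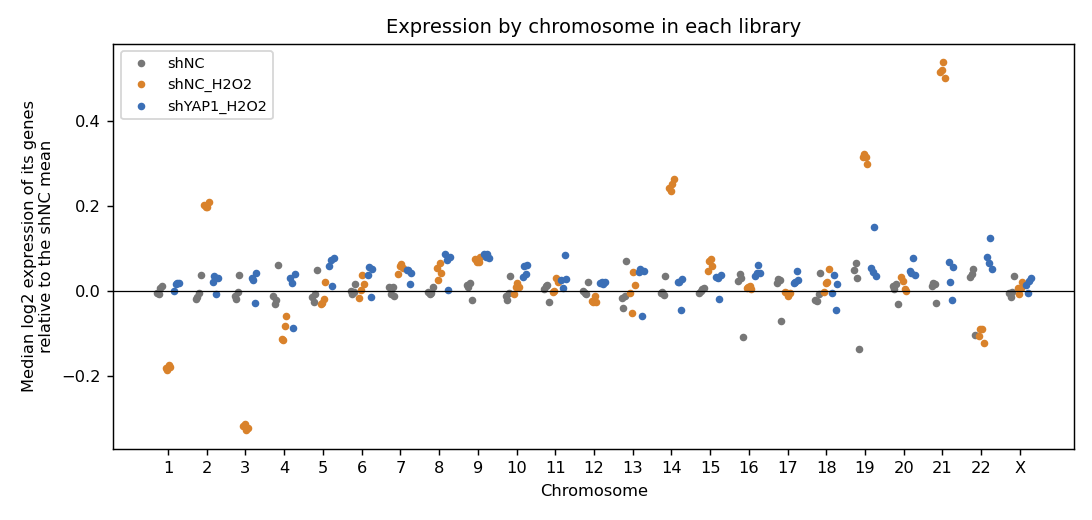
Median log2 expression of the genes of each chromosome, relative to the mean of the shNC libraries (y axis), by chromosome (x axis), with one point per library and genes averaging at least 5 CPM over the 8 libraries compared. The shNC_H2O2 libraries leave the shNC level on chromosomes 1, 2, 3, 14, 19 and 21, whereas the shYAP1_H2O2 libraries stay near it.

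YAP1 itself was modestly lower in the libraries labelled as its knockdown. It stood at 155, 151, 156 and 164 CPM in shNC_H2O2 replicates 1 to 4 and at 131, 135, 111 and 136 CPM in shYAP1_H2O2. All 4 shYAP1_H2O2 libraries lay below all 4 shNC_H2O2 libraries, and replicate 3 was the lowest. The difference was log2 fold change -0.29 ± 0.07, adjusted p = 0.00346 in edgeR, with a 95% interval of -0.43 to -0.14, and a permutation test of log2 CPM, exact and two-sided, gave p = 0.0286, the smallest that 70 assignments allow. With neighbouring genes subtracted the log2 fold change was -0.23 (adjusted p = 0.0175). In shNC without the oxidant YAP1 stood at 136, 130.3, 140.5 and 124 CPM, and the shYAP1_H2O2 libraries did not pass the test against that group (log2 fold change -0.05 ± 0.07, adjusted p = 0.636). Counts of mRNA do not measure the protein, and the level of YAP1 protein was not analysed here.

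**Figure D3:**
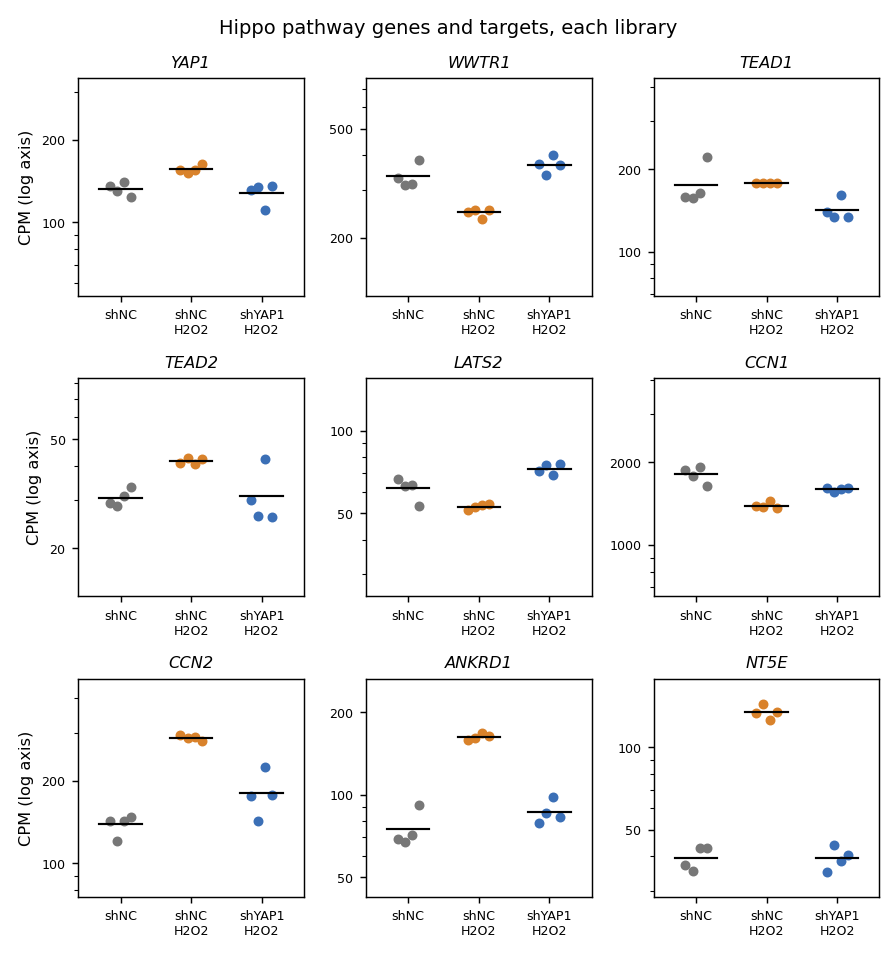
CPM (log axis) of YAP1, WWTR1, TEAD1, TEAD2, LATS2, CCN1, CCN2, ANKRD1 and NT5E in each library, with 4 points per group and a bar at the group mean. YAP1, CCN2, ANKRD1 and NT5E are lower in all 4 shYAP1_H2O2 libraries than in any shNC_H2O2 library, and TEAD2 overlaps through replicate 3.

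The partners of YAP1 moved in both directions. Of 7 tested genes for YAP1, TAZ, TEAD and VGLL factors, 1 was called higher and 3 lower (2 and 3 without the 2 mitochondria-rich libraries, 0 and 2 with neighbouring genes subtracted). WWTR1, which encodes TAZ, stood at 249, 254, 235 and 254 CPM in shNC_H2O2 against 371, 340.5, 400.2 and 369 CPM in shYAP1_H2O2, without overlap (log2 fold change 0.58 ± 0.07, adjusted p = 1.0e-05). It lies on chromosome 3, and with the shift of its neighbours subtracted its log2 fold change was -0.07 and was not called. TEAD1 was lower (-0.33 ± 0.10, adjusted p = 0.0134), with 178 ± 0.535 CPM against 142 ± 13.2. TEAD2 was at 40.8, 42.7, 40.5 and 42.2 CPM and 30.0, 26.3, 42.2 and 26 CPM (-0.42 ± 0.12, adjusted p = 0.0119). Replicate 3 of shYAP1_H2O2 lay within the range of the shNC_H2O2 libraries for TEAD2, and the call was lost with neighbouring genes subtracted (-0.01). TEAD3 (28 ± 1.29 and 28.9 ± 4.74 CPM) and TEAD4 (24.8 ± 1.49 and 28.3 ± 1.71 CPM) did not pass.

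Upstream, 6 of 22 Hippo kinases and regulators were higher and 6 lower. Their share called, 54.5%, was near the 51.6% of placed genes averaging at least 5 CPM. The kinase LATS2, which phosphorylates YAP1 and TAZ, stood at 51.3, 52.9, 53.5 and 54.2 CPM in shNC_H2O2 against 71.2, 74.9, 69.1 and 75.6 CPM in shYAP1_H2O2 (log2 fold change 0.46 ± 0.07, adjusted p = 7.6e-05). LATS1 was also higher (0.35 ± 0.09, adjusted p = 0.00571, and 0.60 with neighbours subtracted), and so was STK3 (0.30 ± 0.10, adjusted p = 0.0205), in each case in 4 of 4 libraries above the range of shNC_H2O2, although the call of STK3 was lost when shNC_H2O2 replicate 2 or shYAP1_H2O2 replicate 1 was left out. Their adaptors went the other way: MOB1A, the LATS co-activator, fell by 0.53 on the log2 scale (adjusted p = 2.9e-05), its paralog MOB1B fell by 0.57 and SAV1, the scaffold of the MST kinases, fell by 0.38. SAV1 lies on chromosome 14, and with its neighbours subtracted its log2 fold change was 0.01 and was not called. WWC1 (KIBRA), which activates LATS kinases, rose by 0.80 and AMOTL2, an angiomotin that holds YAP1 at junctions, by 0.91 (0.27 with neighbours subtracted). The protocadherin FAT4, an upstream cell-surface receptor of the pathway, rose by 1.13, from 26.1 ± 1.46 to 57 ± 2.07 CPM. MAP4K4, a kinase that acts beside MST1/2, fell by 0.94 and FRMD6 fell by 0.77. With neighbours subtracted the log2 fold changes were -0.25 for MOB1A and -0.44 for FRMD6.

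Direct targets of YAP/TAZ with TEAD did not move one way. Of 22 on a list compiled from common knowledge of the pathway, 9 were higher and 9 lower, and the median log2 fold change was -0.12 beside -0.00 over all tested genes. With 81.8% of them called, the list was called more often than the 43.0% of all genes, in both directions. Connective tissue growth factor CCN2, a matricellular protein, stood at 295, 288, 289 and 279 CPM in shNC_H2O2 and at 177, 143, 225 and 178 CPM in shYAP1_H2O2. All 4 shYAP1_H2O2 libraries lay below all 4 shNC_H2O2 libraries (log2 fold change -0.67 ± 0.10, adjusted p = 8.6e-05). ANKRD1, a cardiac ankyrin repeat protein widely used as a readout of the pathway, stood at 158, 161, 167 and 164 against 78.8, 85.7, 97.9 and 82.7 CPM, again without overlap (-0.91 ± 0.09, adjusted p = 1.2e-06). In shNC they stood at 139 ± 11.9 and 75 ± 11.5 CPM. CCN1, another matricellular target, was slightly higher, at 1384, 1374, 1441 and 1367 CPM in shNC_H2O2 against 1609, 1561, 1601 and 1608 CPM in shYAP1_H2O2 (0.20 ± 0.06, adjusted p = 0.0148), but it was not called with library sizes alone, or with neighbouring genes subtracted (-0.07).

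Promoters of 2 of the falling targets and of 2 genes of the endoplasmic reticulum described below are shown because CCN2 and ANKRD1 are usual readouts of YAP1 with TEAD, and HSPA5 and HERPUD1 of stress in that compartment. The window runs from 250 bases before to 50 bases after the transcription start of each gene in RefSeq (build GRCh38.p14), 5′ to 3′ on the strand of the gene. Capitals mark GGAATG, the core of the TEAD-binding M-CAT element, in CCN2 and ANKRD1, the endoplasmic reticulum stress element (CCAAT, then 9 bases of any kind, then CCACG) in HSPA5, and its shorter form (ATTGG, 1 base of any kind, then CCACG) in HERPUD1. Both strands were searched.
CCN2, chr6:131951323-131951622, minus strand: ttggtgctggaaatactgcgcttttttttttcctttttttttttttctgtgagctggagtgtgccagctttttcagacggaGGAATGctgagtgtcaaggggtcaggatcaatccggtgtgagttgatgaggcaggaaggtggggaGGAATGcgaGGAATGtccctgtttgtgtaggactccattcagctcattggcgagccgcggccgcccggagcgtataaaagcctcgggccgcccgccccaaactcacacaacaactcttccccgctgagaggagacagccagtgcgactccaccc
ANKRD1, chr10:90921038-90921337, minus strand: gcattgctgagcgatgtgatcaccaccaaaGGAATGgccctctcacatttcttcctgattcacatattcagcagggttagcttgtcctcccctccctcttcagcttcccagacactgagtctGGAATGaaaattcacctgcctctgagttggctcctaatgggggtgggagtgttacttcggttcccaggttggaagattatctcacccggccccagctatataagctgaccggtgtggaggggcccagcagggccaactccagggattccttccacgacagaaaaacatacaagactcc
HSPA5, chr9:125241294-125241593, minus strand: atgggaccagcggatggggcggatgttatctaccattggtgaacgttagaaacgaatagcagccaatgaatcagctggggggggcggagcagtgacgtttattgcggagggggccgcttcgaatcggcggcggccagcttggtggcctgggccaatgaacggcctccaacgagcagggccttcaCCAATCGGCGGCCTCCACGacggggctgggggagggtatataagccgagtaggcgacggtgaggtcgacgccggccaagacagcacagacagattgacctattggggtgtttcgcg
HERPUD1, chr16:56931892-56932191, plus strand: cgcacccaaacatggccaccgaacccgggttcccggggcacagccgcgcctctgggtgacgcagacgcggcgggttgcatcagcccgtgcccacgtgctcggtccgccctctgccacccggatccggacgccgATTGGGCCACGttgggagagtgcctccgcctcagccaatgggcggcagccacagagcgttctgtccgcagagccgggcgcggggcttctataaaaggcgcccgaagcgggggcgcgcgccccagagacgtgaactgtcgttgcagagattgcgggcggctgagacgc
The CCN2 window holds GGAATG 3 times, starting 169, 104 and 95 bases before the start site, and ANKRD1 holds it 2 times, at 220 and 128 bases. It occurs in 7 of the 16 listed targets with a promoter in the table (43.8%), in 14.0% of all 35116 promoters of that length and in 1367 of the 12478 promoters of tested genes. Among targets with a promoter, 3 of 6 called higher and 4 of 8 called lower held it. A match describes the letters of the window only.

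Among other targets, NT5E, the ecto-5′-nucleotidase CD73 that makes adenosine, had the largest fall of those above 1 CPM: 134, 144, 126 and 134 CPM in shNC_H2O2, 35.2, 44.1, 38.5 and 40.5 CPM in shYAP1_H2O2 and 39.6 ± 3.9 CPM in shNC (log2 fold change -1.77 ± 0.08, adjusted p = 3.1e-10). IGFBP3, which binds insulin-like growth factors, stood at 106, 100.1, 129 and 111 against 53.3, 46.3, 64.5 and 50.8 CPM (-1.05 ± 0.10, adjusted p = 9.6e-07), and CCDC80, a matrix protein, at 84.9 ± 7.23 and 37.3 ± 2.62 CPM. These 2 stood below shNC too (log2 fold changes of -0.96 and -1.06 against it). In the other direction, tissue factor F3, which starts coagulation, stood at 58.2, 55, 58.7 and 55.7 CPM in shNC_H2O2 against 133, 116, 141 and 131 CPM in shYAP1_H2O2, 2.28-fold higher without overlap (1.19 ± 0.08, adjusted p = 1.2e-08). TGFB2, a TGF-β ligand, stood at 98.7, 106, 109 and 109 against 188, 198, 270.0 and 186 CPM (0.99 ± 0.16, adjusted p = 2.1e-04), the highest value being that of replicate 3. AXL, a receptor tyrosine kinase, fell by 0.41, but with neighbours subtracted its log2 fold change was -0.10 and was not called.

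Among the 12 largest falls were 3 secreted proteases of the matrix, MMP13, MMP1 and ADAMTS5. Collagenase 3, MMP13, stood at 136, 140.1, 137 and 143 CPM in shNC_H2O2 and at 1.22, 1.39, 1.83 and 1.25 CPM in shYAP1_H2O2 (log2 fold change -6.62 ± 0.20, adjusted p = 7.9e-12). Interstitial collagenase MMP1 stood at 129, 120.1, 127 and 129.8 against 3.43, 3.12, 3.03 and 3.61 CPM (-5.25 ± 0.10, adjusted p = 1.2e-14). The 2 collagenases were at 2.09 ± 0.853 and 8.52 ± 0.94 CPM in shNC, so the shYAP1_H2O2 libraries were near or below the untreated level. ADAMTS5, an aggrecanase, stood at 51.1 ± 2.97 CPM in shNC_H2O2 and 1.28 ± 0.153 in shYAP1_H2O2 (-5.32 ± 0.17, adjusted p = 6.0e-12). CDH13, a cadherin anchored by a lipid, stood at 55.1, 52.1, 54 and 53.3 CPM in shNC_H2O2 against 0.624, 0.474, 0.572 and 0.553 CPM in shYAP1_H2O2 (-6.58 ± 0.18, adjusted p = 6.9e-13). The activin subunit INHBA, a ligand of the TGF-β family, stood at 535, 502, 536 and 524 against 38.4, 45.5, 38.7 and 42.8 CPM (-3.66 ± 0.07, adjusted p = 2.7e-14). In shNC it stood at 19.3 ± 1.2 CPM, so that INHBA remained above untreated cells (log2 fold change 1.10 ± 0.07). RFLNA, an actin regulator, THBS2, an antiangiogenic matrix glycoprotein, and TBX3, a transcriptional repressor, had log2 fold changes of -5.36, -3.72 and -3.49. ANKRD34B, CAMK1D and ITGB6 were also among the 12 largest falls (log2 fold changes of -4.02, -3.73 and -3.39). Of the exon bases of ITGB6, 20.6% overlap another gene, so its counts are uncertain.

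Among the rises, CLSTN2, a calsyntenin of synaptic membranes, stood at 18.4, 17.8, 19 and 17.7 CPM in shNC_H2O2, 462, 399, 519.7 and 435 CPM in shYAP1_H2O2 and 859.5, 890.4, 926 and 1117 CPM in shNC (log2 fold change 4.64 ± 0.10, adjusted p = 9.8e-14). It lies on chromosome 3 and kept a log2 fold change of 4.06 with its neighbours subtracted. RSPO3, an R-spondin that strengthens WNT signalling, stood at 2.39, 2.02, 1.87 and 2.05 against 28.5, 23.7, 26.7 and 26.9 CPM (3.66 ± 0.10, adjusted p = 6.9e-13), with 43.2 ± 2.5 CPM in shNC. EPHA5, an ephrin receptor, stood at 1.93, 1.77, 1.49 and 1.4 against 18.4, 22.1, 15.7 and 19.5 CPM (3.52 ± 0.16, adjusted p = 1.4e-10) and, unlike the other 2, above its shNC level of 6.54 ± 1.07 CPM. PTCHD1, NLGN1, SHE, EPB41L3, NFIB, ADAMTS15, FREM2 and SPAG17 rose by 2.97 to 3.28. The small heat shock protein CRYAB rose by 3.29, although 20.6% of its exon bases overlap another gene. Among noncoding genes the largest rises were LINC03033 (2.40), UCA1 (2.00) and LHFPL3-AS2 (1.88), and the largest falls APCDD1L-DT (-2.996), MAP3K4-AS1 (-2.59) and LINC02593 (-2.40). Since the strand setting of the counting is not known, reads of LHFPL3-AS2 and MAP3K4-AS1 may include those of genes on the opposite strand.

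**Figure D4:**
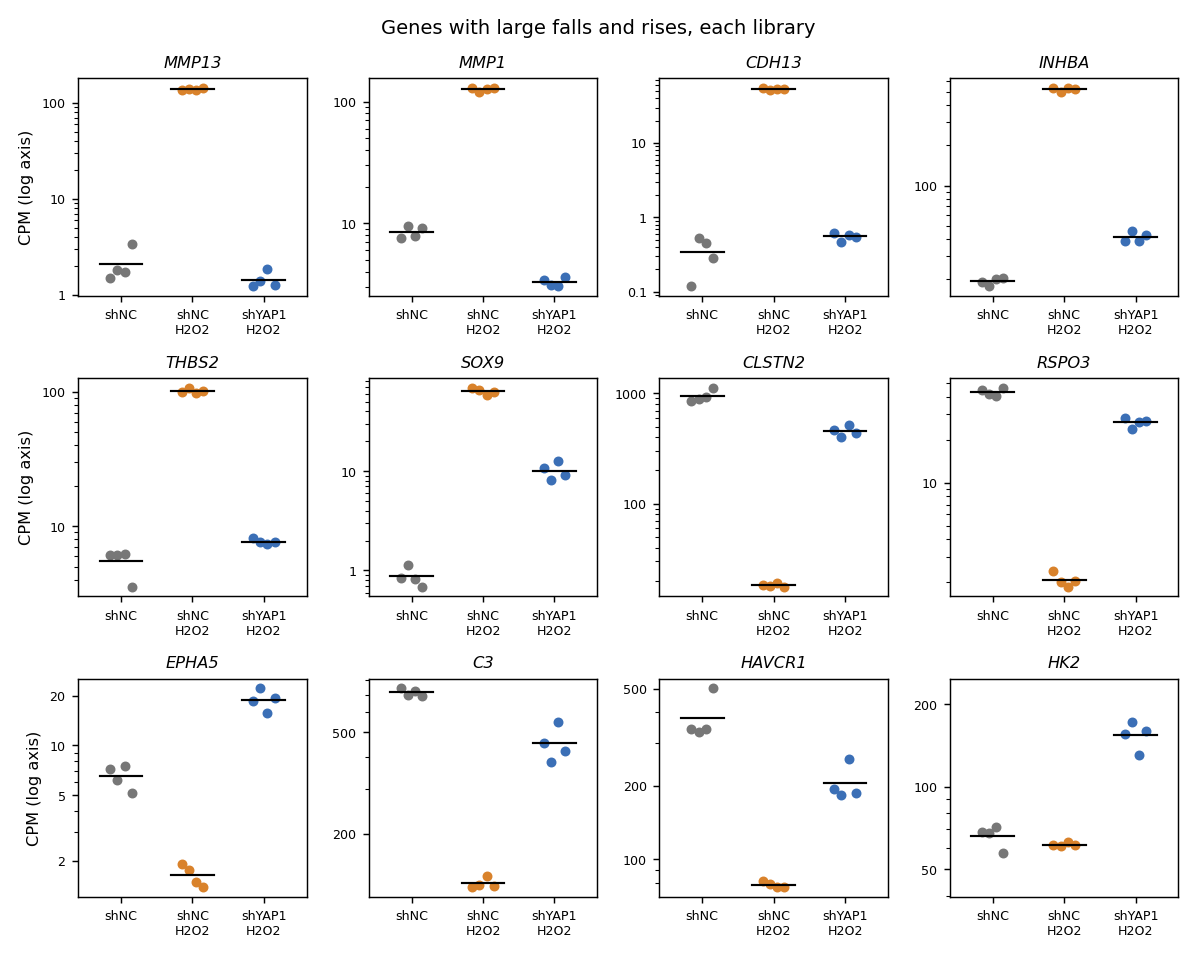
CPM (log axis) in each library of 6 genes with large falls (MMP13, MMP1, CDH13, INHBA, THBS2, SOX9) and 6 with rises (CLSTN2, RSPO3, EPHA5, C3, HAVCR1, HK2), with 4 points per group and a bar at the group mean. For 4 of the falls the shYAP1_H2O2 libraries return to within 2-fold of shNC or below it. The points of the 2 groups compared do not overlap for any of the 12, which was a condition for choosing those among the largest falls and rises.

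Secreted factors of senescent cells fell more often than they rose. Of 32 tested, 15 were lower and 7 higher, with a median of -0.14. The chemokine CXCL8, which draws neutrophils, stood at 675, 663, 663 and 703 CPM in shNC_H2O2 against 369, 319, 293 and 369 CPM in shYAP1_H2O2 (log2 fold change -1.002 ± 0.09, adjusted p = 2.4e-07). The 4 shYAP1_H2O2 libraries lay below all 4 shNC_H2O2 libraries and above the shNC mean (208 ± 23.8 CPM). MMP10, a stromelysin, fell by 4.60. GDF15, a stress cytokine, went the other way, at 265, 278, 283 and 259.8 against 477, 492, 531 and 478 CPM (0.87 ± 0.09, adjusted p = 1.5e-06). The EGF receptor ligand AREG rose by 2.47 (from 26.4 ± 0.436 to 146 ± 5.63 CPM) and CXCL5 by 2.59 (from 1.96 ± 0.442 to 11.8 ± 1.68 CPM). IL6 stood at 40.2 ± 1.14 and 39.1 ± 5.43 CPM and did not pass the test.

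Among the cell cycle inhibitors, CDKN1A and CDKN2A differed little. CDKN1A (p21) stood at 270.0, 263, 251 and 252 CPM in shNC_H2O2 against 289, 289.6, 301 and 274 CPM in shYAP1_H2O2, and the shNC mean was 179 ± 7.74. The 2 groups did not overlap, but the difference was small (log2 fold change 0.15 ± 0.06, adjusted p = 0.0354), it was not called with neighbouring genes subtracted (0.12), and the call was lost when replicate 2, 3 or 4 of shNC_H2O2 or replicate 1 or 2 of shYAP1_H2O2 was left out. CDKN2A, the gene of p16, stood at 133, 131, 131 and 139.5 against 117, 114, 183 and 125 CPM (0.01 ± 0.13, adjusted p = 0.956). Here the highest of the 8 values was that of shYAP1_H2O2 replicate 3 and the other 3 of its group lay below shNC_H2O2, so that the log2 fold change without the 2 mitochondria-rich libraries was -0.17 (adjusted p = 2.0e-04). CDKN2B, the gene of p15, did not pass (-0.26 ± 0.11, adjusted p = 0.075), CDKN1C (p57) rose by 0.57 and CDKN2C (p18) fell by 0.76. Lamin B1 (LMNB1), which is lost from senescent nuclei, stood at 148, 149, 143 and 141 CPM in shNC_H2O2 against 117, 105, 97.1 and 114 CPM in shYAP1_H2O2 (-0.42 ± 0.09, adjusted p = 0.00124). Its level in shNC was 201 ± 26.7 CPM, above both. LMNB2, HMGB1, HMGB3 and HMGA2 were lower as well (-0.72, -0.38, -0.67 and -1.59), with LMNB2 at -0.35 with neighbours subtracted. Of the 10 nuclear senescence marks tested, 5 were lower and 3 higher (5 and 1 with neighbouring genes subtracted).

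Targets of p53 were called lower in 13 of 28 and higher in 7, with a median of -0.33. SPATA18, which takes part in the removal of damaged mitochondria, fell by 3.02 (from 4.99 ± 0.98 to 0.613 ± 0.0979 CPM), TP53I3 fell by 1.62 and TP53INP1 fell by 0.94. GADD45A and CCNG1 rose by 0.64 and 0.46, the latter not called with neighbouring genes subtracted (0.19). The proliferation marker MKI67 stood at 314, 313, 302 and 308 CPM in shNC_H2O2 against 264, 261, 425 and 256 CPM in shYAP1_H2O2 (-0.04 ± 0.14, adjusted p = 0.853). Replicate 3 lay above all other libraries and its 3 partners below all of shNC_H2O2, and without the 2 mitochondria-rich libraries MKI67 was lower (-0.25, adjusted p = 1.9e-08). Of 42 genes of mitosis, 16 were lower and 4 higher, and of 45 genes of DNA replication 18 were lower and 3 higher (28 and 7 without those libraries), with medians of -0.11 and -0.15. SPC25, KIF11 and CENPA had the largest falls among the first (-0.73, -0.49 and -0.48), and E2F2, CCNE2 and LIG1 among the second (-0.83, -0.71 and -0.71). With neighbours subtracted SPC25 was at -0.48, CENPA at -0.29 and LIG1 at -0.47. MCM2 and CDT1, which license origins of replication, rose by 0.68 and 0.61, and MCM2, on chromosome 3, was at 0.14 and not called with neighbouring genes subtracted, where CDT1 was at 0.38. The share called among genes of mitosis (47.6%) and replication (46.7%) was near the 43.0% of all genes. Of 29 repair genes of recombination and the Fanconi pathway 12 were lower and 3 higher (10 and 1 with neighbouring genes subtracted). Their share called, 51.7%, was near the 51.6% of placed genes averaging at least 5 CPM.

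Enzymes that meet oxidants rose more often than they fell. Of 30 targets of NRF2, the main transcription factor of the antioxidant response, 15 were higher and 2 lower (median 0.32). Heme oxygenase HMOX1 stood at 11.9, 11.9, 12.8 and 11.1 CPM in shNC_H2O2 against 23, 21.3, 26.5 and 22.5 CPM in shYAP1_H2O2 (log2 fold change 0.97 ± 0.09, adjusted p = 3.2e-07), and the quinone reductase NQO1 at 49.1, 50.7, 49.7 and 48.1 against 63.2, 65.4, 57.1 and 67.6 CPM (0.36 ± 0.07, adjusted p = 0.00107). Neither overlapped between the groups, and both stood below the shNC mean (31.6 ± 2.37 and 98.1 ± 9.22 CPM). OSGIN1, AKR1B1 (aldose reductase) and PIR rose by 1.22, 1.10 and 1.09, while the exporter ABCC3 fell by 0.44. Of 30 other antioxidant enzymes 14 were higher and 3 lower (17 and 8 without the 2 mitochondria-rich libraries). The mitochondrial superoxide dismutase SOD2 stood at 172, 181, 165 and 178 CPM in shNC_H2O2, 404, 319, 291 and 408 CPM in shYAP1_H2O2 and 863, 824, 833 and 613 CPM in shNC (1.03 ± 0.12, adjusted p = 5.1e-06). The secreted glutathione peroxidase GPX3 stood at 36.7, 36.8, 32.2 and 36.6 against 108, 82.9, 169 and 106 CPM (1.71 ± 0.18, adjusted p = 3.8e-06), and replicate 3 was the highest, with the log2 fold change at 1.47 without it and shNC replicate 4. MGST1 rose by 1.28, and MSRB3, a methionine sulfoxide reductase, fell by 0.98. Among genes of iron and ferroptosis, 12 of 25 were higher and 3 lower, with rises of the iron exporter SLC40A1 (1.10) and the transferrin receptor TFRC (1.04, on chromosome 3, 0.58 with neighbours subtracted).

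Genes of glycolysis and of the response to low oxygen rose more often than they fell. Of 24 genes of glycolysis and lactate 16 were higher and 1 lower (19 and 2 without the 2 mitochondria-rich libraries), with a median of 0.36. Hexokinase HK2, the first step of glycolysis, stood at 61.2, 60.8, 62.7 and 61.4 CPM in shNC_H2O2 against 156, 172, 130.4 and 160.2 CPM in shYAP1_H2O2, above the 66.2 ± 6.15 CPM of shNC (log2 fold change 1.33 ± 0.09, adjusted p = 7.4e-09). PDK1, which holds pyruvate back from mitochondria, rose by 1.30, the glucose transporter SLC2A1 by 0.88 (from 425 ± 10.7 to 782 ± 33.8 CPM), phosphoglycerate kinase PGK1 by 0.70 and lactate dehydrogenase LDHA by 0.73. PGK1 and LDHA remained below their shNC levels (log2 fold changes of -0.85 and -1.10 against shNC). PFKFB3, which makes an activator of phosphofructokinase, was the gene of the list called lower (-0.48 ± 0.08, adjusted p = 1.7e-04). In the hypoxia list 16 of 27 were higher and 2 lower. NDRG1, a stress-response gene, stood at 154, 158, 171 and 159 against 462, 538, 533 and 460.3 CPM (1.63 ± 0.07, adjusted p = 6.8e-11), and the carbonic anhydrase CA12 rose by 2.54, from 4.88 ± 0.757 to 28.5 ± 5.49 CPM. Of 15 mitochondrially encoded genes 1 was called, the ribosomal RNA MT-RNR1, at 624, 582, 857 and 655 CPM in shNC_H2O2 against 1713, 1618, 3555 and 1709 CPM in shYAP1_H2O2 (1.66 ± 0.30, adjusted p = 8.8e-04). Replicate 3 was the highest for it, but its 3 partners also lay above all shNC_H2O2 libraries. Without the 2 mitochondria-rich libraries, 2 of these genes were higher and 11 lower, so the direction for this gene group depends on those libraries.

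Most chaperones of the endoplasmic reticulum and of the heat shock response rose. Of 25 chaperones and folding enzymes of the endoplasmic reticulum, 17 were higher and 0 lower (68% called), with a median of 0.54. BiP (HSPA5), the main chaperone there and the sensor of unfolded proteins, stood at 1481, 1496, 1486 and 1477 CPM in shNC_H2O2 against 2858, 3453, 2085 and 2941 CPM in shYAP1_H2O2 (log2 fold change 0.93 ± 0.12, adjusted p = 1.3e-05). The lowest of the 4 was replicate 3, and all lay above both shNC_H2O2 and shNC (934 ± 99.3 CPM). HERPUD1, which takes part in the degradation of misfolded proteins, stood at 104, 109.8, 108 and 106 against 168, 189.8, 186 and 172 CPM (0.74 ± 0.07, adjusted p = 9.9e-07), and the stress sensor ERN1 (IRE1) rose by 0.98. In the window shown above, the element marked in HSPA5 begins 66 bases before its start site and that in HERPUD1 117 bases before. The longer element was found in 6 of 22 listed chaperones with a promoter (27.3%), in 0.0769% of all promoters and in 0.128% of promoters of tested genes. The shorter one was found in 3 of 22, in 0.0541% and in 0.0882%. Of the 22, 5 of 16 called higher and 1 of 6 not called held the longer element. Of 22 heat shock chaperones 14 were higher and 0 lower (16 and 1 with neighbouring genes subtracted). HSPA8, the constitutive HSP70, stood at 1249, 1298, 1209.8 and 1237 against 1979, 1933, 2275 and 1929 CPM (0.70 ± 0.09, adjusted p = 9.0e-06), and HSPB8 and the mitochondrial HSPA9 rose by 0.95 and 0.83. HSPA1A and HSPA1B, near-identical copies whose reads cannot be assigned with certainty, rose by 0.69 and 0.99. In the integrated stress response 12 of 28 were higher and 4 lower, among them the pro-apoptotic factor DDIT3 (CHOP, 31.6% of exon bases overlapped) at 1.09 and the amino acid transporter SLC7A5 at 0.96, beside a fall of ATF5 (-0.54), which was not called with neighbouring genes subtracted (-0.18).

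**Figure D5:**
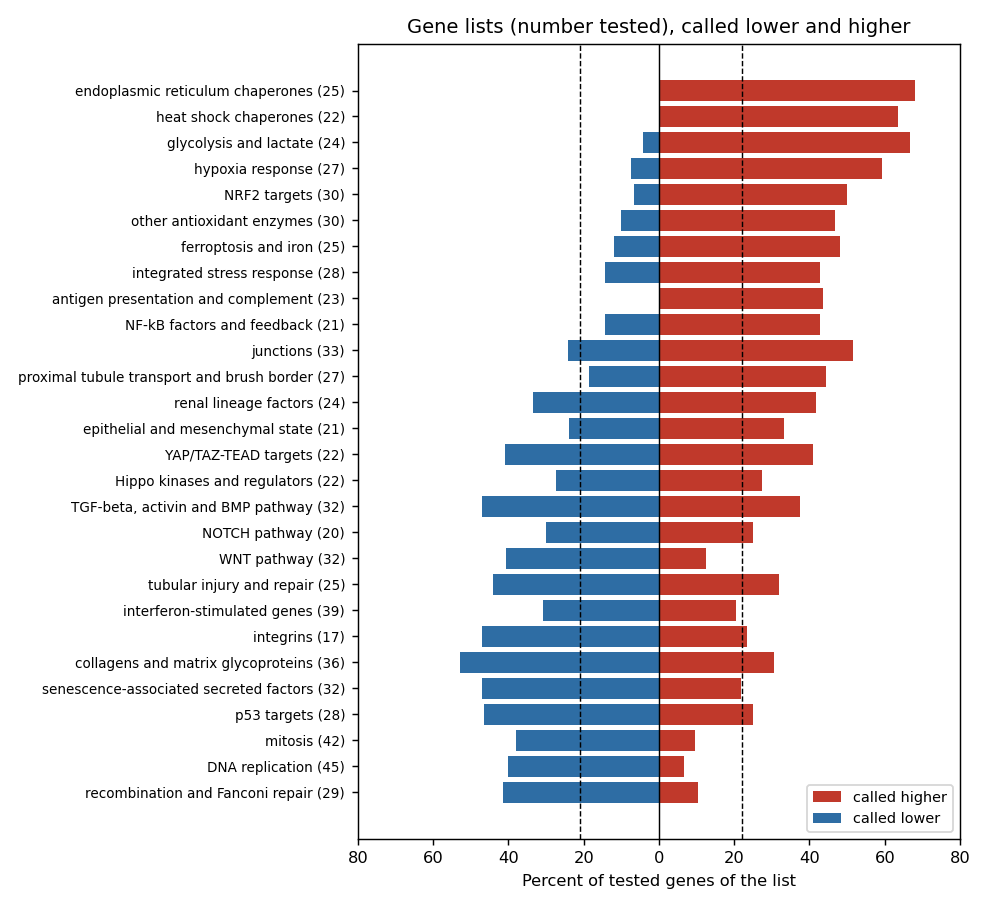
Percent of the tested genes of each list that were called higher (red, to the right) or lower (blue, to the left) in shYAP1_H2O2 against shNC_H2O2, with dashed lines at the 22.0% and 21.0% of all tested genes. Chaperones of the endoplasmic reticulum, heat shock chaperones and glycolysis reach far to the right with little or nothing on the left, and p53 targets and secreted senescence factors reach further to the left.

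Genes of signalling pathways were called in both directions. In the TGF-β, activin and BMP pathway 12 of 32 genes were higher and 15 lower. Beside INHBA, the latent TGF-β binding protein LTBP2 fell by 2.67 and the inhibitory SMAD6 fell by 1.67, while the BMP and activin decoy receptor BAMBI rose by 2.78 and BMP4 from 0.546 ± 0.262 to 4.88 ± 0.969 CPM (3.11 ± 0.30, adjusted p = 6.5e-07). In the WNT pathway 13 of 32 were lower and 4 higher. The share called, 53.1%, was near the 51.6% of placed genes averaging at least 5 CPM. WNT5A, a ligand of the noncanonical branch, stood at 36.3, 37.2, 33.7 and 34.8 against 14.1, 11.9, 15.8 and 13.6 CPM (-1.36 ± 0.13, adjusted p = 4.7e-07), with 7.03 ± 1.63 CPM in shNC, and the receptor FZD8 and the secreted WNT inhibitor NOTUM fell (log2 fold changes of -2.09 and -2.31). In the NOTCH pathway 5 of 20 were higher and 6 lower, and the share called, 55.0%, was also near that 51.6%. The ligand JAG1 and the receptor NOTCH2 rose by 0.42 and 0.95. The target genes HES1, HEY1 and NRARP fell (log2 fold changes of -0.51, -0.78 and -1.62), with HES1 at -1.04 with neighbours subtracted. JAG1 stood at 49.7 ± 7.74 CPM in shNC, 384 ± 16.5 in shNC_H2O2 and 516 ± 19.9 in shYAP1_H2O2. Among genes listed with ERK signalling, cyclin D1 (CCND1) stood at 121, 126, 129 and 121 CPM in shNC_H2O2 against 27.5, 34.4, 29.1 and 28.6 CPM in shYAP1_H2O2 (-2.05 ± 0.07, adjusted p = 1.4e-11). The feedback gene SPRY1, an inhibitor of receptor tyrosine kinases, rose by 2.00.

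Inflammation did not move as 1 block. Among 21 NF-κB factors and feedback genes 9 were higher and 3 lower (11 and 5 without the 2 mitochondria-rich libraries). The inhibitor TNFAIP3 (A20) stood at 27.1, 26.8, 31.4 and 27.3 CPM in shNC_H2O2 against 126, 126, 151 and 128 CPM in shYAP1_H2O2 (log2 fold change 2.24 ± 0.08, adjusted p = 1.5e-11), and the cytokine LTB fell by 1.32. Complement C3 stood at 124, 126, 137 and 125 against 455, 381, 551 and 423 CPM (1.83 ± 0.09, adjusted p = 4.9e-10), and in its list of antigen presentation and complement 10 of 23 were higher and 0 lower (14 and 3 without the 2 mitochondria-rich libraries, 7 and 1 with neighbouring genes subtracted). The share of that list called, 43.5%, was near the 43.0% of all genes. C3 stood at 718 ± 22.6 CPM in shNC. Interferon-stimulated genes split, with 12 of 39 lower, led by MX1 (-2.11), IFI27 (-1.33) and IFIT1 (-1.06), and 8 higher, led by the guanylate-binding proteins GBP2 (1.29) and GBP1 (0.78). With neighbouring genes subtracted 10 of them were lower and 5 higher. The share of interferon-stimulated genes called, 51.3%, was near the 51.6% of placed genes averaging at least 5 CPM. In the prostaglandin list (5 higher and 6 lower of 14) the phospholipase PLA2G4A rose by 2.35 and the cyclooxygenase PTGS2 stood at 0.203, 0.148, 0 and 0.233 against 1.72, 2.17, 2.06 and 1.93 CPM, near the floor of detection in shNC_H2O2. HPGD, which breaks prostaglandins down, fell by 1.28.

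Matrix genes fell more often and junction genes rose more often. Of 36 collagens and matrix glycoproteins 19 were lower and 11 higher (median -0.30). Fibronectin, FN1, among the most abundant mRNAs of these cells, stood at 20419.8, 19780.0, 22931 and 20809 CPM in shNC_H2O2 against 9623, 9114, 12994 and 9166 CPM in shYAP1_H2O2, close to the 9936 ± 1392 CPM of shNC (log2 fold change -1.04 ± 0.12, adjusted p = 3.7e-06). Fibrillin FBN1 fell by 2.68 and COL16A1 fell by 1.59, while the laminin chain LAMA1 rose by 1.61 and COL5A1 by 1.58. Of 17 integrins 8 were lower and 4 higher. ITGA2, a collagen receptor, fell by 0.94 and ITGA4, which binds VCAM1 and fibronectin, rose by 0.99. Of 33 junction genes 17 were higher and 8 lower (median 0.32). The desmosomal cadherin DSC2, the gap junction protein GJA1 and P-cadherin (CDH3) rose by 2.46, 1.83 and 1.79. Claudin 2 (CLDN2), which makes the proximal tubule leaky to cations, stood at 368, 354, 299 and 336 CPM in shNC_H2O2, 97.5, 68.5, 122 and 93.9 CPM in shYAP1_H2O2 and 38.2 ± 6.03 CPM in shNC (-1.83 ± 0.15, adjusted p = 3.7e-07). Among markers of epithelial and mesenchymal state (7 higher and 5 lower of 21), E-cadherin CDH1 stood at 1.07, 1.4, 1.17 and 1.19 against 3.15, 2.65, 4.6 and 2.06 CPM (1.36 ± 0.22, adjusted p = 1.4e-04), and the epithelial splicing factor ESRP1 and the repressor OVOL2 rose by 1.94 and 2.15. N-cadherin (CDH2) and ZEB2 fell (log2 fold changes of -0.30 and -0.40), with CDH2 at -0.52 with neighbours subtracted. They were not the largest falls: 3 other genes of this list were called at least 2-fold lower, and 4 of its genes at least 2-fold higher. Vimentin, VIM, stood at 737 ± 30.1 and 587 ± 86.3 CPM and did not pass (-0.33 ± 0.13, adjusted p = 0.0515), but was lower without the 2 mitochondria-rich libraries (-0.43, adjusted p = 1.3e-11), and then 10 of the list were lower.

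Genes of the tubule and of its injury moved in both directions. Kidney injury molecule HAVCR1 stood at 81.3, 78.6, 77 and 76.9 CPM in shNC_H2O2, 193, 183, 257 and 187 CPM in shYAP1_H2O2 and 343, 333, 341 and 502 CPM in shNC (log2 fold change 1.39 ± 0.13, adjusted p = 1.1e-06). Lipocalin LCN2 stood at 4.85, 4.28, 4.28 and 4.49 against 13.2, 11.2, 28.3 and 14.5 CPM (1.91 ± 0.30, adjusted p = 1.8e-04), and osteopontin SPP1 rose by 1.09. For HAVCR1 and LCN2 replicate 3 was the highest, and the log2 fold changes without the 2 mitochondria-rich libraries were 1.26 and 1.54. SOX9, a factor of tubular repair, went down, at 68.3, 65.3, 58.2 and 62.7 CPM in shNC_H2O2 against 10.7, 8.11, 12.5 and 9.18 CPM in shYAP1_H2O2, with 0.832, 1.15, 0.83 and 0.69 CPM in shNC (-2.65 ± 0.13, adjusted p = 2.9e-10). Keratin KRT7 fell by 3.22, from 43.1 ± 3.53 to 4.6 ± 0.559 CPM. Of 11 keratins tested, 3 were lower and 1 higher (5 and 3 without the 2 mitochondria-rich libraries), and 1 was at least 2-fold lower. Their share called, 36.4%, was below the 43.0% of all genes. In all, 11 of 25 injury and repair genes were lower and 8 higher (17 and 8 without those libraries). Of 27 genes of proximal tubule transport 12 were higher and 5 lower (9 and 3 with neighbouring genes subtracted). The phosphate transporter SLC34A2 stood at 0.152, 0.369, 0.317 and 0.558 CPM in shNC_H2O2, close to the floor of detection in replicate 1, and at 3.41, 2.51, 7.52 and 2.95 CPM in shYAP1_H2O2 (3.51 ± 0.41, adjusted p = 1.2e-05), the exporter ABCG2 rose by 2.76, and the vitamin D enzymes CYP24A1 and CYP27B1 fell (log2 fold changes of -2.31 and -1.12). Among renal lineage factors (10 higher and 8 lower of 24) the nuclear receptor HNF4G and SALL1 rose by 1.87 and 1.84, and SIX2 and FOXC2 fell (log2 fold changes of -1.31 and -1.89).

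Set beside the untreated reference, which shares libraries with the comparison, genes described above stood in several ways, of which 4 are given. MMP13, NT5E, FN1 and ITGA2 were raised in shNC_H2O2 over shNC (log2 fold changes of 6.04, 1.77, 1.08 and 1.15) and in shYAP1_H2O2 differed from shNC by -0.58, -0.00, 0.04 and 0.21. SOX9, INHBA, CXCL8 and CLDN2 were raised in shNC_H2O2 by 6.17, 4.76, 1.70 and 3.15 and remained above shNC in shYAP1_H2O2 by 3.52, 1.10, 0.70 and 1.32. HK2, F3, HSPA5 and GDF15 stood further from shNC in shYAP1_H2O2 (1.23, 1.34, 1.60 and 1.80) than in shNC_H2O2 (-0.11, 0.15, 0.67 and 0.93). CLSTN2, RSPO3, SOD2 and C3 stood below shNC in shNC_H2O2 (-5.70, -4.37, -2.17 and -2.49) and less far below it in shYAP1_H2O2 (-1.06, -0.71, -1.14 and -0.67). The genes of each kind were chosen from those above after their values were seen.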

How the data were processed

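Per the labels, polyadenylated RNA was selected with oligo(dT) and sequenced paired-end. For each library the authors deposited raw counts, whole numbers for every gene without scaling or pooling. HISAT2, featureCounts, Subread, DESeq2 and the GRCh38 (hg38) build are named per the submitters' processing notes. Their versions, the release of the annotation, the strandedness and the treatment of multiply mapped reads were not found in the labels. Reads of overlapping genes may therefore be mixed, and a gene that shares over 20% of its exon bases with another is called uncertain.

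Of 40649 Ensembl identifiers, 40555 had a symbol among the reference gene names and 85 more had one in GENCODE (GRCh38), and 39306 had a position. With edgeR 4.0.16 (R 4.3.3), filterByExpr by group left 19268 genes, libraries were scaled by TMM, and all 12 libraries entered one robust quasi-likelihood fit by group. Adjusted p-values are Benjamini-Hochberg over all tested genes. Exact two-sided permutation tests ran over the 70 assignments of 8 libraries. The shift of neighbouring genes is the median of 51 genes centred on each gene along its chromosome. Replicates differed by more than sampling noise in every pair, with a chi-square per degree of freedom of 2.97 or more in the 2 groups. Without molecular identifiers, floors of detection describe counting error alone. The scripts were tested on simulated data. Promoter sequences are from RefSeq (GRCh38.p14).

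Named genes were YAP1, a panel of 24 genes, the 12 largest rises and 12 largest falls at a mean of at least 5 CPM without overlap of the groups, the 3 largest noncoding rises and falls, up to 3 called members per direction of each gene list (any member of lists of at most 24 tested genes), up to 4 genes per direction present in one group with at most 3 counts in each library of the other, and up to 5 genes of a region or library that stands apart. Genes of the Y chromosome are given only as counts, and some genes it selects are not reported here. The comparison, the gene lists, the markers and the rule were chosen with earlier results of these data known. Alternatives covered the scaling, the filter, DESeq2 1.42.0, the libraries in the fit, the replicate number as a block, chromosome position and each library left out.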

Additional observations from a re-analysis of the deposited data

Results flagged for a closer look

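In 43 of 372 groups of 4 libraries checked (the genes named here, the mitochondrial share and the total counts, in shNC_H2O2 and in shYAP1_H2O2), 1 library lay so far from the other 3 that its gap to the nearest as a share of the group's whole range passed the 95% critical value of Dixon's test. Chance gives such a gap in about 1 in 20 groups. The mitochondrially encoded share of counts in shYAP1_H2O2 had a gap of 0.952 of the range, set by replicate 3, and of the 31 gaps in genes of that group 25 were set by the same library.

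Replicate 3 of shYAP1_H2O2 lay above its partners, with the gap as a share of the range in parentheses, for SALL1 (0.969), MKI67 (0.951), MT-RNR1 (0.951), IL6 (0.944), CRYAB (0.927), TNFAIP3 (0.926), SIX2 (0.925), BCL2L1 (0.922), LINC03033 (0.894), ATF5 (0.887), MRPL3 (0.873), FN1 (0.869), UCA1 (0.864), HAVCR1 (0.864), TGFB2 (0.863), SEMA6A (0.859), MGST1 (0.857), HSPA8 (0.855), CDKN2A (0.847), NOTCH2 (0.833) and AMOTL2 (0.831). It lay below them for PGK1 (0.903), TP53INP1 (0.902), TFRC (0.861) and MSRB3 (0.838). In the same group the remaining gaps were set by other libraries. Replicate 1 stood low for NEU1 (0.915) and CDH3 (0.867). Replicate 2 stood high for NOTUM (0.8294). Replicate 2 stood low for CCN1 (0.835) and HPGD (0.8293). Replicate 4 stood low for TFEB (0.876).

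In shNC_H2O2 such gaps were set by 3 of the 4 libraries. Replicate 1 stood low for NOTUM (0.957) and EFNB3 (0.832). Replicate 3 stood high for TFRC (0.882), TNFAIP3 (0.882), BCL2L1 (0.856) and C3 (0.837). Replicate 3 stood low for GPX3 (0.963), LTB (0.942) and ITGB6 (0.924). Replicate 4 stood low for TEAD1 (0.92) and ITGA4 (0.919). In TEAD1 the whole group lay between 178 and 179 CPM.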

How the results depend on the processing

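Of the 184 genes named, 177 were called and 165 of these kept direction and call in every alternative that tested them. The number called higher and lower ranged from 3095 and 2980 at a mean of at least 5 CPM to 5630 and 5564 without the 2 mitochondria-rich libraries, and leaving out 1 library gave 7196 to 8612 genes in all. Library sizes alone gave 3447 higher and 4534 lower, and DESeq2 4455 and 4199. YAP1 stayed lower and called throughout, from -0.32 to -0.22 with 1 library left out and -0.29 with the replicate block (adjusted p = 0.0102). With the block 3957 genes were higher and 3841 lower. Between shNC_H2O2 and shYAP1_H2O2, libraries that share a replicate number did not deviate together (correlations of 0.01, -0.03, -0.01 and 0.01). Such correlations cannot show whether these libraries shared a batch, and shNC was not checked in this way. The block lost the call of CDKN1A and of no other named gene.

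With the shift of neighbouring genes removed, the log2 fold change was -0.068 for CCN1, 0.013 for SAV1 and -0.070 for WWTR1, and with the 2 mitochondria-rich libraries also left out, a setting chosen after seeing the data, -0.082, 0.066 and -0.16. With both choices OSGIN1 was at 0.74 and TGFB2 at 0.51. CCN1 lost its call with library sizes alone. CDKN2A changed sign to -0.063 with library sizes alone, -0.0071 at a mean of at least 5 CPM, -0.0061 with the block, -0.17 without the 2 libraries and -0.14 when the shift was also removed, and between -0.17 and 0.083 with 1 library left out. TEAD3 changed sign to -0.022 with library sizes alone, -0.074 without the 2 libraries and -0.055 when the shift was also removed, and lay between -0.073 and 0.10 with 1 library left out. MKI67 lay between -0.25 and 0.035 with 1 library left out. The mitochondrial share differed by 0.791 percentage points, by -0.878 without the 2 libraries, and by -0.878 to 1.39 with 1 library left out. The causes were not tested. Depth limits genes near the floor of detection, and with 4 libraries a group no exact test can go below p = 0.0286.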

Other observations

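Several gene groups outside the lists above are given here. Of 77 mitochondrial ribosomal proteins 51.9% were called, near the 51.6% of placed genes averaging at least 5 CPM. Of the 77, 35 were higher and 5 lower (median 0.24), led by MRPL24 (0.94), MRPL3 (0.90) and MRPL9 (0.83). With neighbouring genes subtracted 33 were higher and 0 lower, and these 3 genes were at 0.29, 0.30 and 0.23. Of 30 genes of ribosome biogenesis and MYC 16 were higher and 5 lower (13 and 1 with neighbouring genes subtracted). MYC, a driver of ribosome production, stood at 300.5, 295, 338 and 314 CPM in shNC_H2O2 against 538, 575, 786 and 516 CPM in shYAP1_H2O2 (log2 fold change 0.95 ± 0.12, adjusted p = 1.6e-05). Of 34 genes of lysosome and autophagy 19 were higher and 5 lower (19 and 9 without the 2 mitochondria-rich libraries). ATP6V1A, a subunit of the proton pump that acidifies lysosomes, stood at 58.7, 61.6, 59.3 and 62.1 against 123, 119.6, 93.7 and 127 CPM (0.94 ± 0.08, adjusted p = 2.5e-07), with a log2 fold change of 0.40 with neighbouring genes subtracted. The sialidase NEU1 rose by 0.80, while TFEB, the transcription factor of lysosomal genes, fell by 0.83.

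Among HOX genes, which set position along the body axis, 16 of 34 were lower and 0 higher, with a median of -0.36. Their share called, 47.1%, was near the 43.0% of all genes. With neighbouring genes subtracted 12 were lower and 2 higher, and without the 2 mitochondria-rich libraries 23 and 4. HOXD10 stood at 9.37, 10.7, 10.5 and 8.54 CPM in shNC_H2O2 against 3.87, 3.76, 3.66 and 3.81 CPM in shYAP1_H2O2 (-1.37 ± 0.11, adjusted p = 6.6e-08). Of 28 genes of the BCL2 family and of cell death 14 were lower and 5 higher (9 and 5 with neighbouring genes subtracted). Among them the pro-apoptotic BMF fell (-1.21) and the anti-apoptotic MCL1 (0.61) and BCL2L1 (0.57) rose. These 2 were not the largest rises, since 2 other genes of the list were called at least 2-fold higher, beside 1 at least 2-fold lower. The call of MCL1 was lost with neighbouring genes subtracted (0.05) and that of BCL2L1 with no filter on low counts. Without shYAP1_H2O2 replicate 3 BCL2L1 was at 0.34. Of 14 ADAMTS proteases 7 were lower and 3 higher, with ADAMTS15 at 3.07 beside ADAMTS10 at -3.19. Guidance molecules split: SEMA6A rose by 2.01 and SEMA5A fell by 2.31, and EFNA1 rose by 1.23 (0.62 with neighbouring genes subtracted) and EFNB3 fell by 2.50.

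A few genes were present in one group and at or near 0 in the other. Somatostatin (SST), a peptide hormone, had 29 to 167 counts in the shYAP1_H2O2 libraries, 0 in each shNC_H2O2 library and 372 to 627 in shNC. Against a floor of 3 counts over the shNC_H2O2 group it was at least 119-fold higher. The semaphorin SEMA3D had 30 to 57 counts in shYAP1_H2O2, 0 in each shNC_H2O2 library and 6 to 26 in shNC, at least 54.1-fold higher by the same floor. The thiamine transporter SLC19A3 had 68 to 128 counts in shYAP1_H2O2, at most 2 in any shNC_H2O2 library and 28 to 58 in shNC. In the other direction IGDCC3 had 29 to 47 counts in shNC_H2O2, at most 2 in any shYAP1_H2O2 library and 8 to 15 in shNC.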
